A study of Homo sapiens with 12 samples.

Results

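SNRPA1 siRNA was compared with non-targeting control siRNA in BEAS-2B cells by RNA sequencing. The comparison uses 6 of the 12 libraries of the series, 3 with each siRNA, and 13772 of the 35697 genes of the siRNA count table, namely those whose mean over the 6 libraries was at least 1 CPM (read counts scaled to a fixed total per library). BEAS-2B is a human bronchial epithelial line immortalised with a viral T antigen. All 6 siRNA libraries share a chromate history: the cells had been grown over 20 weeks with 0.25 µM K2Cr2O7 (potassium dichromate, a source of hexavalent chromium) and 0.05% DMSO, the vehicle. These cells were then transfected with 100 nM of a SmartPool (a mixture of several siRNAs against one transcript) directed at SNRPA1, or with the same 100 nM dose of an siRNA without a target, and RNA was taken 48 h later. The other 6 libraries, in a separate table, are chromate-exposed BEAS-2B cells kept with vehicle or with 25 µg/ml of kava, an extract of the kava plant, and are used below only to set kava values beside the knockdown values. No library without chromate is among the 6, so the effect of the knockdown in unexposed cells was not measured here.

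SNRPA1 encodes U2 A', which belongs to the U2 snRNP (small nuclear ribonucleoprotein). The U2 snRNP pairs with the branch site of an intron early in spliceosome assembly, and U2 A' binds the U2 RNA together with its partner SNRPB2. Every intron of the major class passes through this step, so the factors around it are shared by most genes of the cell.

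SNRPA1 (ENSG00000131876; chromosome 15, 101281510 to 101295282, minus strand, hg38) fell in the cells given its siRNA. Its level was 67.6, 58.9 and 60.2 CPM in the control siRNA libraries and 21.4, 20.97 and 23.8 CPM in the SNRPA1 siRNA libraries. The groups did not overlap, and the mean fell from 62.3 ± 4.70 to 22.0 ± 1.50 CPM (SD, n = 3 each), a 2.83-fold difference (log2 fold change -1.50 ± 0.098 SE; edgeR adjusted p = 0.00495). SNRPB2, its partner on the U2 RNA, stood at 99.7, 85.1 and 83.5 CPM with control siRNA and at 110.0, 116.3 and 111.4 CPM with SNRPA1 siRNA (log2 fold change 0.33 ± 0.091; edgeR adjusted p = 0.0574). The SNRPB2 groups did not overlap, and the gene was not called; it is named here after its values were seen.

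Library depth lay between 55003534 and 65385258 assigned reads. Control siRNA replicate 1 stood apart from the other 5 libraries. Its correlation with the other control libraries was 0.9597 and 0.9629 on log2 CPM, whereas these correlated with each other at 0.9771, and the SNRPA1 siRNA libraries correlated at 0.9772 to 0.9793 among themselves. Against the mean of control replicates 2 and 3, its levels were shifted with the GC content of the transcript, from a median log2 difference of -0.38 in the 20% of genes lowest in GC to 0.32 in the 20% highest. It was also shifted with length, from 0.37 in the shortest transcripts to -0.34 in the longest. Counts of calls, over all genes and for each gene list described, are therefore given with and without this library; all 154 called genes of the naming rule were called the same way without it. The labels do not say whether the 3 libraries of a group are separate cultures, so p-values measure only the spread between these samples.

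The epithelial keratins KRT8 and KRT18 were abundant in all 6 libraries, at 1010 to 1360 and 553 to 781 CPM. Of the other genes on the epithelial marker list, CDH1 and KRT5 stayed below 0.76 CPM, and EPCAM between 0.714 and 1.1 CPM. Of 9 fibroblast markers, THY1 (452 to 666 CPM), COL1A1 (246 to 376 CPM) and PDGFRB carried nearly all of the signal, while DCN was at 0 and COL1A2 and COL3A1 were at or below 0.34 CPM. The summed fibroblast list was 745 to 948 CPM with control siRNA and 917 to 1088 CPM with SNRPA1 siRNA. The blood list summed to 33.2 to 43.9 and 27.9 to 30.7 CPM, nearly all of it CD68 and CD14, with HBB at 0, and CD68 fell (log2 -0.88; edgeR adjusted p = 0.0142). CD68 overlaps an expressed gene on the same strand and MPDU1-AS1 on the other strand, so its level is uncertain. Whether other cell types had a part in the results was not tested. In bulk RNA, fewer cells of a type and less RNA per cell cannot be told apart.

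Across the 13772 genes tested, 673 rose (4.89%) and 1004 fell (7.29%) with SNRPA1 siRNA at an edgeR adjusted p under 0.05, which together is 12.2% of the genes. The median absolute log2 change of the called genes was 0.53. A change of 2-fold or more was reached by 53 of the rises and 103 of the falls. The smallest adjusted p was 0.00495, and 4237 genes had an unadjusted p under 0.05. Without control siRNA replicate 1, 2215 genes rose (16.1%) and 2322 fell (16.9%), together 32.9%. Of the genes called with all 6 libraries, 672 of the 673 that rose and 1003 of the 1004 that fell were called the same way without it, and none the opposite way. Calls were lost when other libraries were left out. Without control siRNA replicate 3, or without any one of the SNRPA1 siRNA replicates, no gene passed, with smallest adjusted p-values of 0.0506 to 0.0573 and 2887 to 3327 genes at an unadjusted p under 0.05. Without control siRNA replicate 2, 378 genes rose and 684 fell. The share of calls that were rises was 40.1% with TMM scaling, 21.7% with library totals alone, 24.0% on log2(FPKM + 1), 23.5% on log2(FPKM + 0.1) and 53.8% with a correction for GC content and length (which called 32.7% of 13423 genes), so the balance of rises and falls depends on the scaling.

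**Figure D1:**
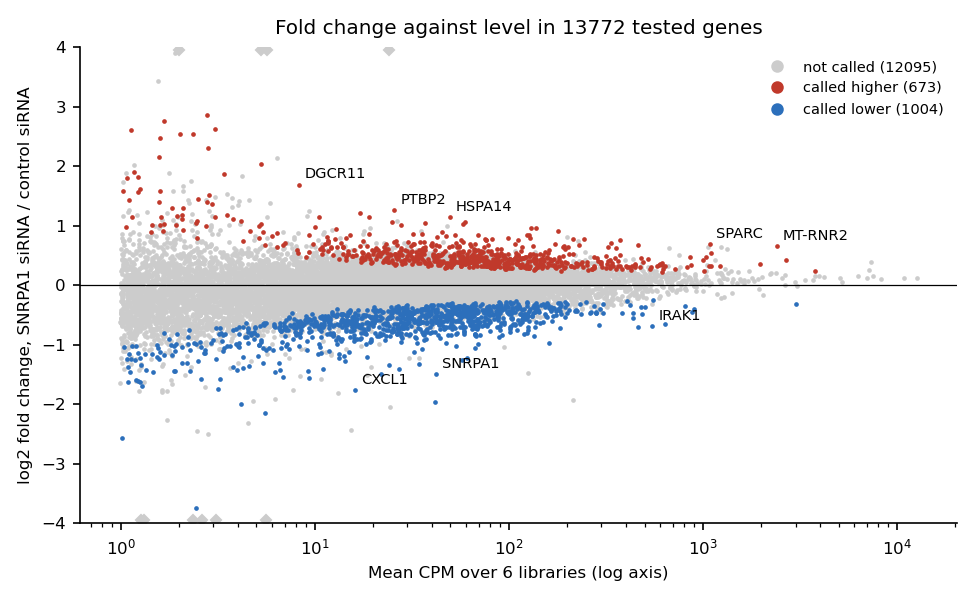
Fold change of each of the 13772 tested genes against its mean level. The horizontal axis is the mean CPM of 6 libraries on a log scale and the vertical axis the log2 fold change, SNRPA1 siRNA over control siRNA; red and blue points are the 673 genes called higher and the 1004 called lower, and diamonds at the edges are 10 genes, none called, that lie beyond 4 on the log2 scale. Called genes lie on both sides of 0 over most of the range of levels.

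Genes with clone or identifier names, and LINC, microRNA, small RNA and antisense genes, were left out of the rankings of largest changes. Among the other genes of at least 5 CPM with groups that did not overlap, the largest rises were in DGCR11, PTBP2, TMED7-TICAM2, HSPA14, DUSP10, SNHG5, RSRP1, FAM133B, NDRG1, ASMER1, CCN2, ADM, CYP3A5, ZNG1F and GREM1, with log2 changes from 0.96 to 1.69. PTBP2, a paralog of the splicing repressor PTBP1, was at 13.4, 16.6 and 15.2 CPM with control siRNA and at 39.5, 35.0 and 33.7 CPM with SNRPA1 siRNA (log2 1.26 ± 0.12; edgeR adjusted p = 0.00698). HSPA14, a ribosome-associated member of the Hsp70 family, was at 31.7, 29.6 and 31.4 CPM against 70.1, 68.0 and 66.9 CPM (log2 1.15 ± 0.077; edgeR adjusted p = 0.00495). In both genes the 3 SNRPA1 siRNA libraries were at least 2-fold above every control library. HSPA14 overlaps MSANTD7 on the same strand, and MSANTD7 itself was not called, at 36.2, 44.0 and 44.1 CPM against 35.4, 36.7 and 32.9 CPM. DGCR11 is a single-exon gene inside DGCR2 on the same strand, with 4.43, 3.90 and 3.40 CPM against 13.0, 13.0 and 11.8 CPM, while DGCR2 was not called. TMED7-TICAM2 is a read-through of TMED7 and TICAM2 and shares exons with both, so its level is uncertain. DUSP10, a phosphatase of the stress-activated MAP kinases, rose from 6.00, 7.02 and 6.69 CPM to 15.1, 15.1 and 13.3 CPM. SNHG5, a host gene of small nucleolar RNAs, rose from 13.6, 10.6 and 11.2 CPM to 27.2, 27.0 and 24.0 CPM.

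The largest falls by the same criteria were in ATP6V1G2-DDX39B, CXCL1, CXCL8, KCNG1, SNRPA1 itself, SLX1A, MRM1, CDH4, XYLB, COL13A1, MFSD3, CORO2B, SPOCD1, CXCL6 and EME2, with log2 changes from -1.28 to -1.96. CORO2B, an actin-binding coronin, was at 36.0, 34.0 and 33.9 CPM with control siRNA and at 13.8, 14.01 and 13.3 CPM with SNRPA1 siRNA (log2 -1.34 ± 0.090; edgeR adjusted p = 0.00495). CDH4, the adhesion protein R-cadherin, was at 13.9, 12.7 and 13.8 CPM against 5.00, 4.85 and 5.15 CPM (log2 -1.43 ± 0.11; edgeR adjusted p = 0.00578). COL13A1, a transmembrane collagen, was at 15.9, 15.8 and 16.5 CPM against 5.77, 6.33 and 6.07 CPM (log2 -1.41 ± 0.10; edgeR adjusted p = 0.00534). In these 3 genes the libraries of a group lay close together and the groups were far apart, control siRNA replicate 1 included. ATP6V1G2-DDX39B is a read-through that shares exons with DDX39B, which was not called (log2 -0.27; edgeR adjusted p = 0.0736). SLX1A has the near-identical copy SLX1B, which fell as well (log2 -1.12), and reads may be split between them. SLX1A also overlaps SLX1A-SULT1A3 on the same strand. EME2 overlaps MRPS34 and SPSB3 on the other strand; with a correction for GC content and length its edgeR adjusted p was 0.087. Whether reads were counted by strand is not given in the sources used here, so overlapping genes on opposite strands cannot be told apart. Among the genes named below, an expressed gene on the other strand overlaps HSP90AA1, DDX42, RBM5, PRPF31, PRPF39, PRPF18, SRRM2, PCBP1, SMG6, DDIT3, DNAJB11, TAGLN, COL1A1, LAMA5, MMP24, FANCD2, XRCC3, FANCI, FANCA, POLA1, BCL2L2, BCL2L1, SREBF1 and SHMT1. An expressed gene on the same strand overlaps RSRP1, RBM5, SNRNP27, SNHG3, TAGLN, BCL2L2, PFKFB4, ENO2 and SLC13A3.

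By difference in CPM, the largest rises were in the mitochondrial ribosomal RNA MT-RNR2, MT-ND5, ACTG1, SPARC and HSP90AA1. MT-RNR2 was at 1704, 2056 and 1837 CPM with control siRNA and 2874, 3132 and 2822 CPM with SNRPA1 siRNA (log2 0.66 ± 0.083; edgeR adjusted p = 0.0103). SPARC, a matrix glycoprotein, was at 776, 853 and 867 CPM against 1304, 1342 and 1384 CPM (log2 0.69 ± 0.067; edgeR adjusted p = 0.00698). The largest falls in CPM were in the actin crosslinker FLNA, the matrix proteoglycan AGRN, the chromatin protein HMGA1, the kinase IRAK1 and the integrin subunit ITGA3. IRAK1, which acts below interleukin-1 and Toll-like receptors, was at 654, 693 and 676 CPM against 415, 438 and 406 CPM (log2 -0.69 ± 0.065; edgeR adjusted p = 0.00698). The groups did not overlap in any of these 10 genes.

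**Figure D2:**
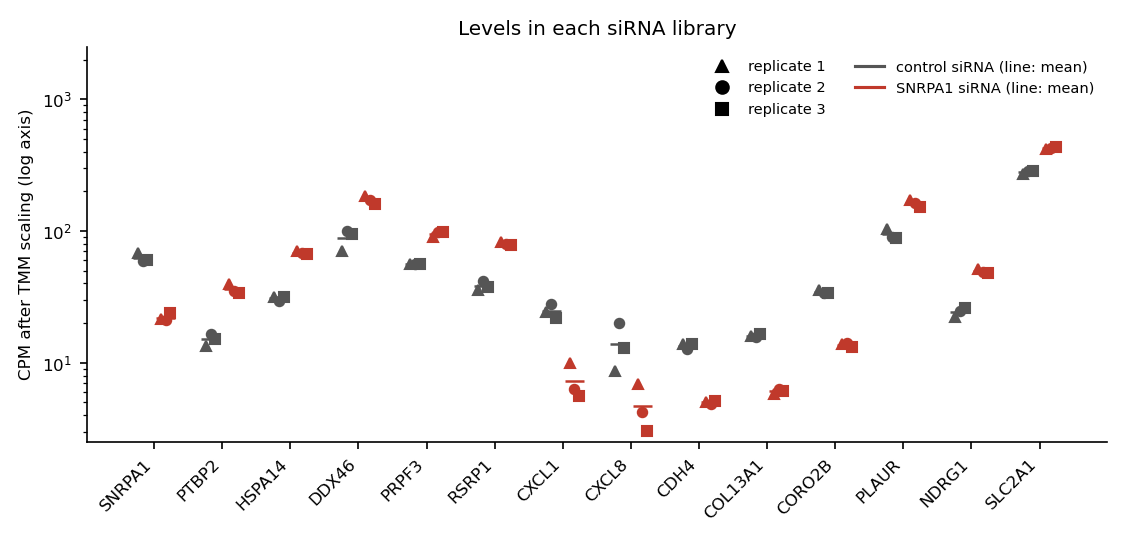
Levels of 14 genes in each siRNA library. The vertical axis is CPM after TMM scaling on a log scale; grey marks are control siRNA and red marks SNRPA1 siRNA, with triangles, circles and squares for replicates 1, 2 and 3 and a line at the mean. SNRPA1 falls from 58.9 to 67.6 CPM in the controls to 20.97 to 23.8 CPM, PTBP2 and HSPA14 lie higher in every SNRPA1 siRNA library, and CXCL8 spreads more within groups than CDH4 or CORO2B.

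Spliceosome genes moved in both directions. Among 26 U2 snRNP and branch-site factors, 3 rose and 3 fell (SNRPA1 among them), with a median log2 change of 0.10 beside -0.00322 for all tested genes. Over all tested genes, 4.89% rose and 7.29% fell. DDX46, a helicase that acts at the branch site, was at 70.9, 99.8 and 95.4 CPM with control siRNA and at 183.4, 171.3 and 161.9 CPM with SNRPA1 siRNA (log2 0.96 ± 0.14; edgeR adjusted p = 0.0125). SF3B6, which contacts the branch-site adenosine, rose by a log2 of 0.35. DDX42, another helicase of the U2 particle, was at 137.1, 168.2 and 164.8 CPM against 95.2, 86.5 and 89.1 CPM (log2 -0.80 ± 0.10; edgeR adjusted p = 0.0103), and RBM5, an alternative splicing regulator, fell by 0.54 on the log2 scale. None of these pairs of groups overlapped. Over the list, 12 of the 26 had groups that did not overlap, beside 38.7% of all tested genes. DDX42 and RBM5 each overlap an expressed gene on the other strand, and RBM5 also overlaps RBM6 on its own strand. Leaving out control siRNA replicate 1, 13 of the 26 were higher and 4 lower, beside 16.1% and 16.9% of all genes.

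The other spliceosome lists are read beside the 4.89% of all genes that rose and the 7.29% that fell, or 16.1% and 16.9% without control siRNA replicate 1. Rises were more frequent among abundant genes. In the fifth of genes highest in mean CPM, 9.4% rose and 7.11% fell, or 34.4% and 16.4% without that library. The lists were not compared with genes of like level. Of 42 Sm, Lsm, U1 and tri-snRNP proteins, 4 rose and 1 fell, with a median of 0.15. PRPF3, a tri-snRNP protein, was at 56.5, 56.3 and 56.4 CPM with control siRNA and 89.7, 97.9 and 98.7 CPM with SNRPA1 siRNA (log2 0.76 ± 0.075; edgeR adjusted p = 0.00698). PRPF39, SNRNP27 and the catalytic-core protein PRPF8 rose by log2 values of 0.69, 0.59 and 0.33. PRPF31, another tri-snRNP protein, was the member that fell, at 181.0, 135.6 and 141.9 CPM against 78.0, 87.9 and 93.0 CPM (log2 -0.83 ± 0.13; edgeR adjusted p = 0.0152). Of 29 factors of the Prp19 complex and the catalytic steps, 6 rose and none fell, with a median of 0.21. CWC25, SLU7, PRPF18, SYF2 and RBM22 rose by 0.39 to 0.52, and over the list 16 of the 29 had groups that did not overlap, beside 38.7% of all tested genes. With control siRNA replicate 1 left out the counts were 21 higher and 2 lower of 42, and 14 higher and 1 lower of 29.

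Of 23 SR proteins and their kinases tested, 5 rose and none fell, with a median of 0.23. SR proteins bind exonic enhancers and recruit the splicing machinery. RSRP1, an arginine- and serine-rich protein, was at 35.8, 41.5 and 37.8 CPM against 82.8, 79.2 and 77.8 CPM (log2 1.06 ± 0.086; edgeR adjusted p = 0.00638). SRRM1 rose by a log2 of 0.69, TRA2A by 0.40 and SRRM2 by 0.37. SRSF3 rose by 0.31, with an edgeR adjusted p of 0.198 once GC content and length were corrected for. Of 29 hnRNP proteins, 2 rose, PTBP2 and PCBP1, and 1 fell. Of 16 nonsense-mediated decay factors, 1 rose and 2 fell, UPF3B and SMG6 (-0.54 and -0.40). Of 17 small nucleolar RNA host genes, SNHG5 and SNHG1 rose and SNHG3 fell. With control siRNA replicate 1 left out, 10 of the 23 SR genes were higher and 2 lower, and their median was 0.13. The hnRNP list then had 9 higher and 4 lower, the decay factors 7 and 3, and the host genes 6 and 3.

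Genes with many exons were more often among the falls. Genes were ordered by the number of exons of their longest basic transcript in GENCODE 29 and cut into 5 equal groups. The share that fell was 3.65%, 4.32%, 5.59%, 9.65% and 13.4% from the fewest exons (1 to 4) to the most (16 to 363), beside 7.29% of all genes. The share that rose was 3.5%, 7.64%, 7.08%, 4.25% and 2.2%. The median log2 change went from 0.0096 in the group with the fewest exons, through 0.065, to -0.089 in the group with the most. Of the 879 single-exon genes, which need no splicing, 1.14% fell and 3.07% rose. The share of calls also varied with level. In the fifth of genes lowest in mean CPM 3.77% fell and 1.81% rose, and in the highest 7.11% and 9.4%. Exon number was not examined within groups of like level or like intron length.

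Exon number goes with transcript length. Genes with 8 or more exons numbered 562 in the shortest of 5 equal groups by length and 2022 in the longest. Across 5 equal groups by GC content, from lowest to highest, they numbered 1499, 1483, 1367, 1403 and 1450, without a steady trend. Control siRNA replicate 1 deviated with both transcript length and GC content. Within each of 5 equal groups by length, genes with 8 or more exons had a lower median log2 change and a larger share of falls than genes with fewer. Among transcripts of 2712 to 3857 bases, for example, 12.8% of the genes with 8 or more exons and 6.46% of those with fewer fell. The same held within each of 5 equal groups by GC content, where in the highest group 19.9% and 7.29% fell. Without control siRNA replicate 1 the share of falls went from 8.08% in the genes with the fewest exons to 33.9% in those with the most, and with a correction for GC content and length from 8.64% to 24.2%. Taken library by library, the pattern rests on control siRNA replicates 2 and 3. The median departure of the many-exon genes from their 6-library mean, less that of the few-exon genes, was -0.25, 0.18 and 0.13 on the log2 scale in control siRNA replicates 1, 2 and 3 and 0.0095, -0.055 and -0.094 in the SNRPA1 siRNA replicates. The groups overlapped (exact two-sided permutation p = 0.7, where 3 against 3 cannot go below 0.1), since control siRNA replicate 1 lay below all 3 SNRPA1 siRNA libraries and the other control libraries above them. Gene counts do not show whether introns were retained or exons skipped.

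**Figure D3:**
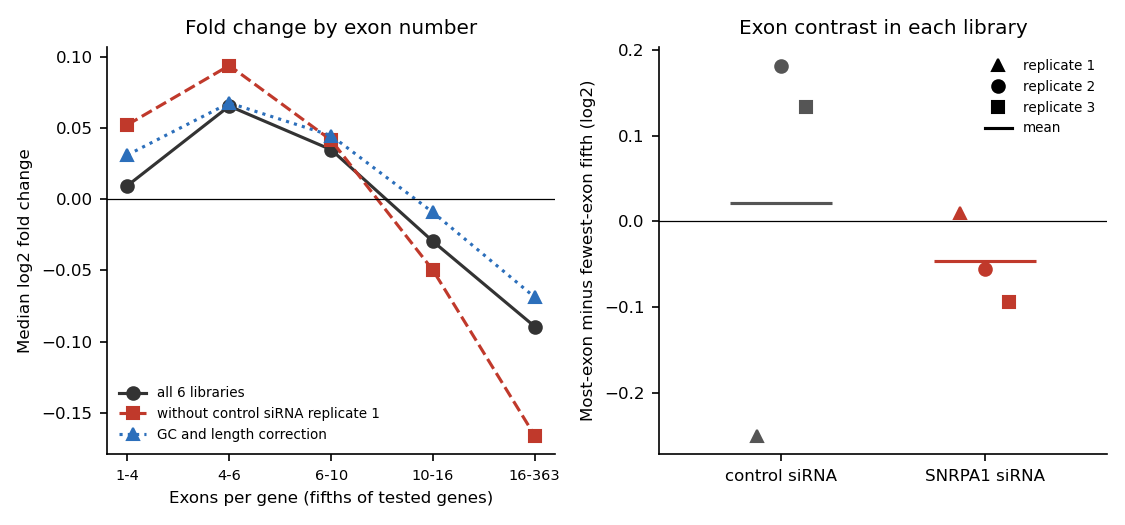
Fold change and exon number. Left, median log2 fold change, SNRPA1 siRNA over control siRNA, in 5 equal groups of genes by exon number, with all 6 libraries, without control siRNA replicate 1 and with a correction for GC content and length; all 3 lines end below 0 in the group with 16 or more exons. Right, the many-exon minus few-exon value of each library on the log2 scale, with a line at the mean of each group; control siRNA replicate 1, at -0.25, lies below all SNRPA1 siRNA libraries.

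Inflammatory cytokine genes had the lowest median of all the lists. Of 29 members, 23 passed the filter on low counts, of which 8 fell and 1 rose, with a median log2 change of -0.71. Over all tested genes, 7.29% fell and 4.89% rose. The members that fell were CXCL1, CXCL8, CXCL6, IL1A, CXCL2, IL6, CCL2 and TNFAIP2, and IL11, a cytokine of the interleukin-6 family, was the one that rose; those outside the naming rule are named after their values were seen. The CXC chemokines of this set attract neutrophils, and their genes lie together on chromosome 4. The 120 bases before the RefSeq transcription start (GRCh38.p14) are shown for CXCL1 (chr4:73869273-73869392, plus strand), CXCL2 (chr4:74099196-74099315, minus strand), CXCL6 (chr4:73836558-73836677, plus strand) and CXCL8 (chr4:73740449-73740568, plus strand), because these 4 neighbours fell together, and for IL6 (chr7:22727080-22727199, plus strand), which fell as well. Capitals mark every match, on either strand, to GGNNTTTCC, a form of the site bound by NF-kB, the transcription factor of inflammatory signalling.
CXCL1: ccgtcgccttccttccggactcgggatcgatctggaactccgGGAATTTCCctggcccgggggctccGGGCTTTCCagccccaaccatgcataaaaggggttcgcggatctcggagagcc
CXCL2: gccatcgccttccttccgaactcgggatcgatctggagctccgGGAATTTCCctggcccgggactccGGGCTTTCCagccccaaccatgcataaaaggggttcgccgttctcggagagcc
CXCL6: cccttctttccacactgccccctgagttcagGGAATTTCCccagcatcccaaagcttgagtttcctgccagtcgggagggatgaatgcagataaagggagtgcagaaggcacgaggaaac
CXCL8: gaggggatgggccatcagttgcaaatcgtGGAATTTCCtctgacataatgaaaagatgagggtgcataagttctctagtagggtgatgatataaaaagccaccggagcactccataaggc
IL6: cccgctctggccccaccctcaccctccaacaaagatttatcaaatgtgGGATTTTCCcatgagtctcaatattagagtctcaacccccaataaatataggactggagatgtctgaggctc

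All 5 stretches held the motif, which begins between 53 and 91 bases before the start. The 5 were picked for their fall. Over the list, the motif was present in 11 of the 22 members with a promoter in the RefSeq table: 6 of 7 that fell (IL1A without it, TNFAIP2 with it), 4 of 9 not called, 1 of 5 too low to test, and not in IL11, which rose. CXCL3 and CXCL5, further CXC chemokine genes of the list, held the motif and were not called. It was present in 2.76% of all 35116 promoters over the same window. A match describes the letters only and is not a measurement of binding.

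CXCL1 was at 24.5, 28.0 and 22.0 CPM with control siRNA and at 10.0, 6.31 and 5.64 CPM with SNRPA1 siRNA (log2 -1.76 ± 0.23; edgeR adjusted p = 0.0105). CXCL8 was at 8.66, 20.2 and 12.9 CPM against 6.85, 4.20 and 3.04 CPM (log2 -1.56 ± 0.39; edgeR adjusted p = 0.0439). The groups did not overlap in either gene, but CXCL8 varied more than 2-fold within each group. CXCL6 was at 8.17, 10.8 and 8.94 CPM against 3.98, 4.00 and 3.27 CPM (log2 -1.31 ± 0.17; edgeR adjusted p = 0.0104). IL6 was low, at 2.96, 3.47 and 3.05 CPM against 1.65, 1.48 and 1.69 CPM (log2 -0.98 ± 0.19; edgeR adjusted p = 0.0226). CCL2, which attracts monocytes, was at 44.4, 42.1 and 38.1 CPM against 26.9, 23.6 and 22.7 CPM (log2 -0.77 ± 0.11; edgeR adjusted p = 0.0123). IL11 went the other way, at 27.6, 31.8 and 27.8 CPM against 44.8, 47.8 and 43.4 CPM (log2 0.64 ± 0.096; edgeR adjusted p = 0.0137). TNFAIP2 was no longer called with the GC and length correction (edgeR adjusted p = 0.147). The groups did not overlap in 19 of the 23 members, beside 38.7% of all tested genes. Other NF-kB targets were not called: NFKBIA had a log2 change of -0.18 (edgeR adjusted p = 0.157), and ICAM1, an adhesion molecule, one of -0.028 (edgeR adjusted p = 0.833). Without control siRNA replicate 1, 15 of the 23 were lower and 1 higher, with a median of -0.75, beside 16.9% and 16.1% of all genes. Of 29 interferon-stimulated genes tested, IFI35 and OAS3 fell and none rose, with a median of -0.024, beside 7.29% and 4.89% of all genes. Of 19 genes of RNA interference and double-stranded RNA sensing, RIGI rose and AGO1 and MAVS fell, MAVS with an edgeR adjusted p of 0.0582 after the GC and length correction. The interferon list had 4 higher and 6 lower without control siRNA replicate 1, and also with the GC and length correction, and the RNA interference list had 3 higher and 3 lower without that library.

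Of 37 G1/S and DNA replication genes tested, 7 fell and 2 rose, beside 7.29% and 4.89% of all genes, with a median log2 change of -0.13. CDC45, part of the replicative helicase, was at 91.5, 81.9 and 75.4 CPM with control siRNA and 49.0, 51.3 and 51.7 CPM with SNRPA1 siRNA (log2 -0.71 ± 0.093; edgeR adjusted p = 0.0106). POLA1, POLE2 and the cyclin CCNE1 fell by 0.70, 0.63 and 0.63 on the log2 scale, while ORC6, a subunit of the origin recognition complex, rose by 0.47. Of 30 genes of homologous recombination and the Fanconi pathway, which repairs DNA crosslinks, 4 fell and 1 rose. FANCD2, the protein that is ubiquitinated at such lesions, was at 59.4, 69.9 and 60.5 CPM against 40.2, 35.0 and 39.2 CPM (log2 -0.73 ± 0.10; edgeR adjusted p = 0.012). XRCC3, FANCI and FANCA fell by 0.47, 0.40 and 0.33, and the exonuclease gene EXO1 rose by 0.40. Of 36 G2/M and mitosis genes, CDC25B and KIF2C fell and the kinase gene TTK rose. Of 29 p53 targets, DDB2 fell (log2 -0.42) and none rose. When control siRNA replicate 1 was left out, 14 of 37, 12 of 30 and 10 of 36 of the 3 cell cycle and repair lists were lower, and 5, 1 and 3 were higher, beside 16.9% and 16.1% of all genes. The p53 targets then had 4 higher and 1 lower.

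Matrix, cytoskeletal and YAP target genes included several rises. Their counts stand beside 4.89% of all genes that rose and 7.29% that fell. Without control siRNA replicate 1 these shares were 16.1% and 16.9%. Of 23 YAP and TEAD targets, which respond to cell tension and density, 5 rose and 1 fell, with a median of 0.25. CCN2, a secreted matrix-associated protein, was at 31.2, 42.5 and 40.2 CPM with control siRNA and 84.6, 74.4 and 74.0 CPM with SNRPA1 siRNA (log2 1.03 ± 0.13; edgeR adjusted p = 0.0103). CCN1 was at 228, 273 and 260 CPM against 404, 400 and 379 CPM (log2 0.64 ± 0.086; edgeR adjusted p = 0.011), and AMOTL2 and DLC1 rose by 0.64 and 0.57. These groups did not overlap. Of 22 TGF-beta genes tested, 3 rose, the receptor gene TGFBR1 (log2 0.53) and the inhibitory SMAD gene SMAD7 (log2 0.52) among them, and none fell. Of 21 proteases and inhibitors, 5 rose, among them PLAUR, the urokinase receptor, MMP24, TIMP2 and MMP14, and MMP9 fell, MMP9 at 1.47, 1.77 and 2.19 CPM against 0.669, 0.548 and 0.939 CPM. Of 23 mesenchymal genes, 5 rose, among them CNN1, TAGLN and SPARC, and the receptor kinase AXL fell (log2 -0.35), and AXL is also the YAP target that fell. Of 18 epithelial adhesion genes and keratins tested, KRT17 rose (log2 0.80) and the desmosome gene PKP3 fell (log2 -0.60). Of 25 collagen and lysyl oxidase genes tested, 2 fell, COL13A1 and COL7A1 (log2 -0.76), and 1 rose, COL1A1 (log2 0.38). Of 19 integrin and laminin genes ITGA3, LAMB2 and LAMA5 fell, LAMA5 with an edgeR adjusted p of 0.405 after the GC and length correction. The YAP list without control siRNA replicate 1 had 6 higher and 2 lower of 23 with a median of 0.10. The TGF-beta list then had 5 higher and 2 lower, the proteases and inhibitors 7 and 3, the mesenchymal genes 10 and 2, the epithelial genes 4 and 2, the 25 collagen and lysyl oxidase genes 7 and 5, and the integrins and laminins 0 and 5.

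Metabolic lists were mixed, and many of their counts lay near the shares of all genes. Those shares were 4.89% higher and 7.29% lower, or 16.1% and 16.9% without control siRNA replicate 1. Of 29 glycolysis and hypoxia genes tested, 6 rose and 2 fell, with a median of 0.17. NDRG1, a hypoxia-responsive gene, was at 22.1, 24.5 and 26.0 CPM with control siRNA and 51.6, 49.2 and 48.2 CPM with SNRPA1 siRNA (log2 1.04 ± 0.095; edgeR adjusted p = 0.00698). ADM, a peptide hormone gene of the same response, was at 18.1, 17.7 and 19.6 CPM against 37.1, 35.8 and 38.5 CPM (log2 1.01 ± 0.091; edgeR adjusted p = 0.00698). The glucose transporter gene SLC2A1 rose from 274, 284 and 285 CPM to 423, 431 and 439 CPM, while PFKFB4 and ENO2 fell. In the 30 cholesterol and fatty acid genes, 5 rose and 3 fell: the sterol enzymes HSD17B7, SC5D and MSMO1 rose by 0.89, 0.59 and 0.50, whereas SREBF1, a regulator of lipid synthesis, and FASN, the fatty acid synthase, fell by 0.70 and 0.69. FASN was at 547, 574 and 603 CPM against 337, 365 and 364 CPM, with no overlap. Of 23 serine, folate and methionine enzymes, GLDC, SHMT1, AHCY and MTHFD1L fell and MTHFD2L rose. Of 37 nuclear genes of oxidative phosphorylation, UQCRC2 and NDUFA10 fell and none rose. That balance turned round without control siRNA replicate 1, to 12 higher and 4 lower, whereas with the GC and length correction 3 were higher and 4 lower. Without that library, the glycolysis and hypoxia list had 13 higher and 4 lower, the cholesterol and fatty acid list 12 and 8, and the serine, folate and methionine list 3 and 11.

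Of 26 ATF4 and integrated stress response genes, 4 rose (DDIT3, SLC7A5, HERPUD1 and STC2) and none fell, with a median of 0.19. Over all genes, 4.89% rose and 7.29% fell, or 16.1% and 16.9% without control siRNA replicate 1. DDIT3, which encodes the stress factor CHOP, was at 10.8, 7.67 and 10.2 CPM against 14.7, 15.2 and 14.4 CPM (log2 0.62 ± 0.15; edgeR adjusted p = 0.0393). Of 17 cytosolic heat shock genes tested, BAG3, HSPA4 and HSP90AA1 rose by 0.47, 0.41 and 0.35, and none fell. Among 24 endoplasmic reticulum chaperones and stress sensors the pattern was split, with HYOU1 lower (log2 -0.46) and DERL2, HERPUD1, DNAJB11 and PDIA4 higher. DERL2 had an edgeR adjusted p of 0.157 after the GC and length correction. Of 27 apoptosis regulators tested, CASP2 and BCL2L1 rose (0.70 and 0.48) and BCL2L2 fell (-0.73). The ATF4 list had 10 higher and 2 lower both without control siRNA replicate 1 and with the GC and length correction. Without that library the heat shock list had 9 higher and 0 lower, the endoplasmic reticulum list 7 and 1, and the apoptosis list 5 and 2. None of the 75 cytosolic ribosomal protein genes was called, with a median of 0.081. That list rests on 1 library: without control siRNA replicate 1, 68 of the 75 were higher and the median was 0.30. RPS2 stood at 3361 CPM in that library against 2206 and 2378 CPM in the other controls and 2517 to 2794 CPM with SNRPA1 siRNA. With all 6 libraries and the GC and length correction, 18 of the 75 were higher and none lower. Their median was then 0.11, and 17.6% of all genes were higher.

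**Figure D4:**
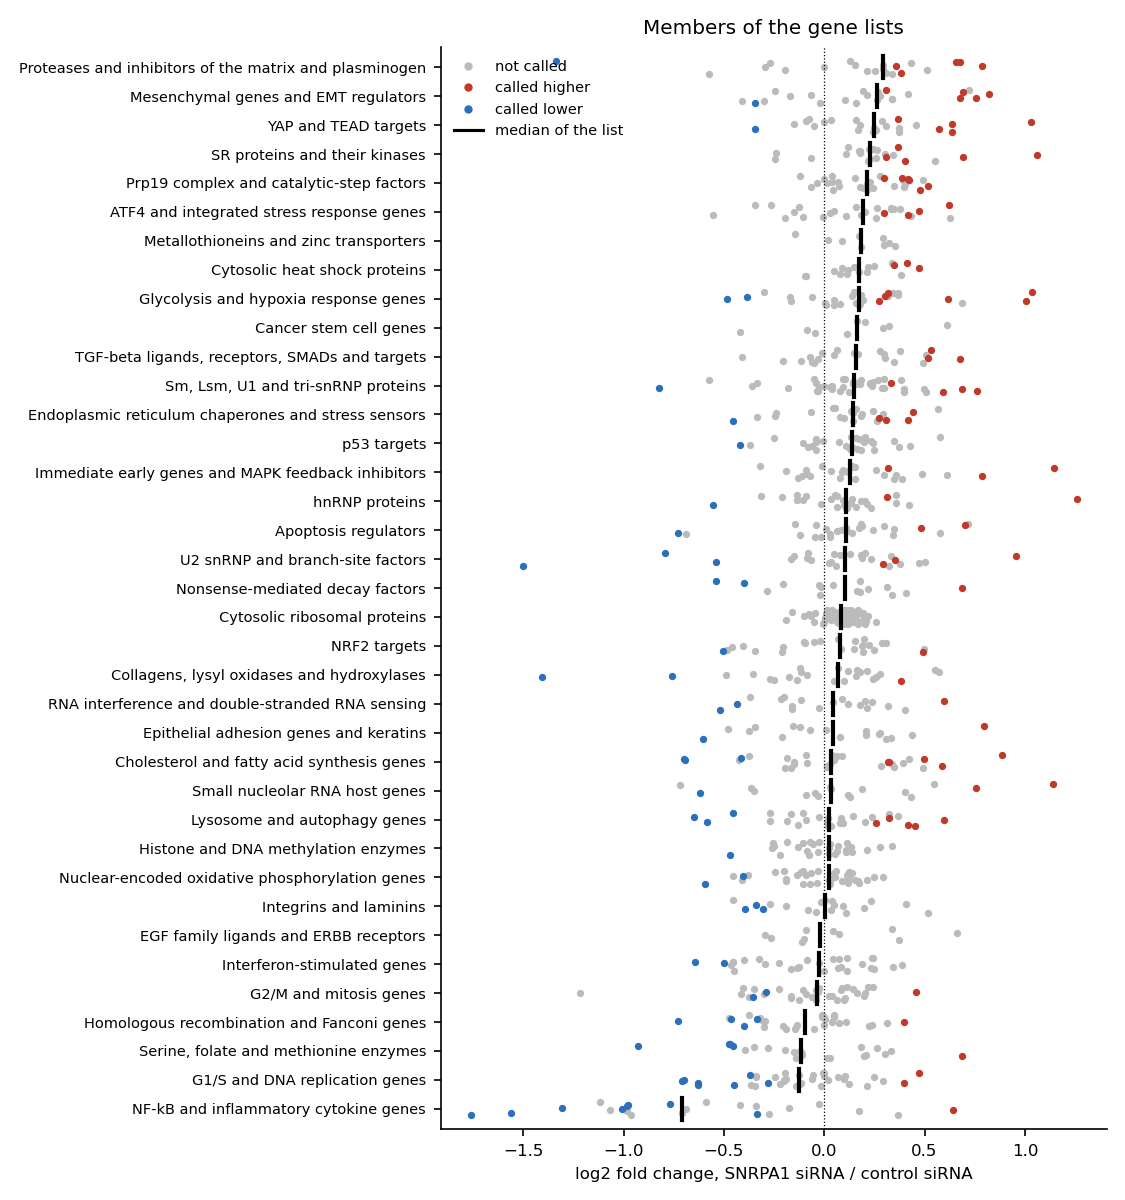
Log2 fold change, SNRPA1 siRNA over control siRNA, of every tested member of the gene lists, ordered by median. Each point is a gene, red where called higher, blue where called lower and grey otherwise, and the black bar is the list's median; the inflammatory cytokine list lies lowest, at -0.71, and the lists of spliceosome factors lie between 0.10 and 0.23.

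Kava values of the genes called in the knockdown come from other libraries and another table, in TPM (transcript abundance scaled to a fixed total per library), tested with limma on log2(TPM + 1). SNRPA1 was at 152.7, 151.9 and 146.9 TPM with vehicle and 124.1, 127.1 and 130.1 TPM with kava, so it was lower with kava as well, by a smaller amount (log2 -0.24 ± 0.036; limma adjusted p = 0.00227). With kava, 31.9% of 13866 tested genes were called. Of 642 genes that rose in the knockdown and were tested in both experiments, 151 (23.5%) were higher and 101 (15.7%) lower with kava, beside 16.8% and 16.6% of all 12704 genes tested in both. Of 978 that fell, 170 (17.4%) were lower and 170 (17.4%) higher with kava, both near that background. Counted the other way, the shared rises were 7.07% of the genes higher with kava, beside 5.05% of all genes tested in both, and the shared falls 8.04% of those lower with kava, beside 7.70%. Without control siRNA replicate 1 they were 406 of 2137 and 442 of 2115 genes, beside 2161 and 2269 of the 12704. Read as shares of the knockdown calls, the values without that library were 18.8% and 16.1% of the rises and 19.5% and 16.2% of the falls, so the share of rises that were higher with kava lay nearer to the background of 16.8%.

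Single genes went together or apart. DUSP10, NDRG1 and CCN2 were higher in both experiments, with kava log2 changes of 0.91, 0.92 and 0.43. SPOCD1, CCDC136, TRAF1, APCDD1L and SLC13A3 were lower in both, by 0.34 to 0.63 with kava. CDH4 fell in the knockdown and was higher with kava (log2 1.03), as was CXCL1 (0.54), and C16orf74 did the same. Of the other chemokines described above, CXCL6 was lower with kava too (log2 -0.57; limma adjusted p = 0.000435), and CXCL8 and CXCL2 were not called (0.001 and 0.11). The starting levels of these genes differed between the experiments. With vehicle, CXCL1, CXCL6, CXCL8 and CXCL2 had means of 359.7, 267.3, 564.5 and 48.4 TPM. With control siRNA their means were 24.8, 9.30, 13.9 and 2.95 CPM. CPM and TPM are different measures, and the difference in level was not tested. NPPB, the precursor of B-type natriuretic peptide, was at 1.57, 1.05 and 1.41 CPM with control siRNA and 3.22, 4.10 and 3.63 CPM with SNRPA1 siRNA, and was lower with kava (log2 -2.12).

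**Figure D5:**
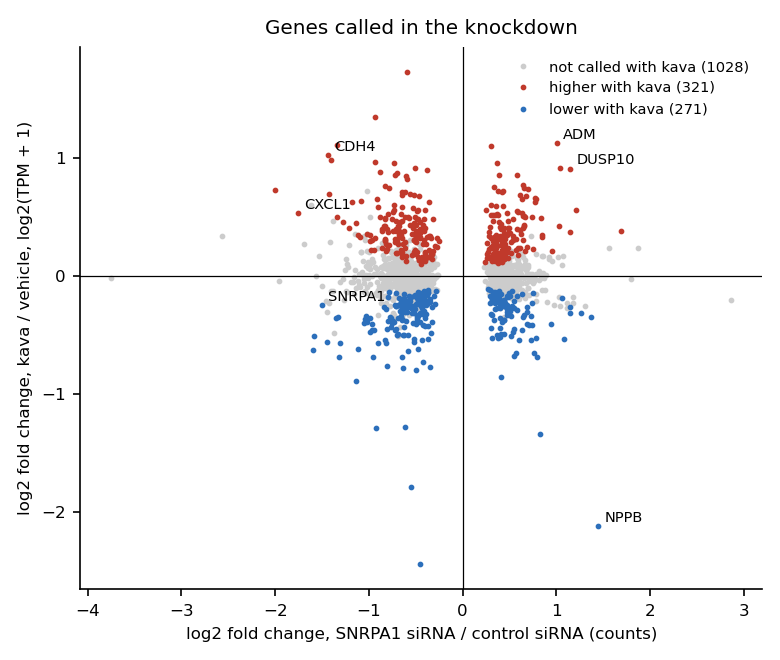
The 1620 genes called in the knockdown and tested in both experiments. The horizontal axis is the log2 fold change of SNRPA1 siRNA over control siRNA from counts, and the vertical axis that of kava over vehicle on log2(TPM + 1); red and blue points were called higher (321) and lower (271) with kava. Points fill all 4 quadrants.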

How the data were processed

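Polyadenylated RNA was captured with oligo(dT) beads, per the labels' protocols. HISAT2 2.0.4, StringTie 1.3.4d, cutadapt 1.9, DESeq2 and the build hg38 are listed, with no roles, in the submitters' processing notes; strand use in counting is not given in the sources used here. The deposited siRNA table holds whole-number read counts per gene and FPKM values, per the file headers; one FPKM column has no prefix in its header, and the gene lengths it implies from its own counts were within 1.10-fold of those of the other libraries. The deposited kava table holds TPM values made by the authors, scaled to a fixed total per library.

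Counts were tested with edgeR 4.0.16 (R 4.3.3; TMM scaling, quasi-likelihood test, Benjamini-Hochberg over all 13772 genes), and called at an adjusted p under 0.05. Printed CPM values are TMM-scaled, SE is that of the log2 fold change, and the fit used only the 6 siRNA libraries. Kava was tested with limma 3.58.1 on log2(TPM + 1) over genes averaging 1 TPM or more; fold changes on that scale understate the change of low genes. Exon number, length and GC content are those of the longest basic transcript in GENCODE 29, matched by gene ID for 33043 genes. The edgeR step was tested on simulated counts. Alternatives were RLE, upper-quartile and total scaling, DESeq2 1.42.0, limma-voom, robust edgeR, other filters, FPKM with a pseudocount of 1 or 0.1, a replicate block and leaving out each library; the GC and length correction was added after the data were seen.

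Genes named are SNRPA1, the 15 largest rises and falls of at least 5 CPM, the 5 largest rises and falls in CPM, up to 5 called members of each of 45 lists (the 2 most abundant where none was called), and up to 16 genes called in both experiments. Genes with clone or identifier names, and LINC, microRNA, small RNA and antisense genes, were left out of the largest changes and of the genes called in both. The comparison and the lists were chosen with earlier results of these data known; 14 of 1071 list symbols were not matched. Some genes that met the naming rule are not reported here by name.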

Additional observations from a re-analysis of the deposited data

How the results depend on the processing

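No named gene that was called changed sign under any alternative. Of 164 named genes beside SNRPA1, 153 were called with all 6 libraries. All 153 lost their call without control siRNA replicate 3, without any one of the SNRPA1 siRNA replicates or with the replicate block. Of the 153, 68 lost it with no filter and 45 without control siRNA replicate 2. With the GC and length correction 5 lost it, and none with DESeq2. SNRPA1 kept a log2 fold change of -1.44 to -1.56 with edgeR when single libraries were left out in turn; its edgeR adjusted p was then 0.0506 to 0.0573 without control siRNA replicate 3 or any SNRPA1 siRNA replicate. Counts of calls moved most. Higher calls numbered 386 with library totals only, 1427 with DESeq2, 258 with no filter, 394 and 382 on log2(FPKM + 1) and log2(FPKM + 0.1), and 2361 with the GC and length correction; they ranged from 0 to 2215 when single libraries were left out. Lower calls numbered 1768 with DESeq2, 411 with no filter and 2027 with the GC and length correction, and ranged from 0 to 2322. Genes higher in the knockdown and with kava numbered 91 with library totals only, 265 with DESeq2, 56 with no filter, 94 and 93 on the FPKM scales, 442 and 312 with the GC and length correction without and with the block, and 0 to 406 when single libraries were left out. Genes lower in both numbered 288 with DESeq2, 75 with no filter, 390 and 266 with the correction, and 0 to 442. Genes higher in the knockdown and lower with kava numbered 52 with totals, 243 with DESeq2, 30 with no filter, 55 and 54 on the FPKM scales, 365 and 203 with the correction, and 0 to 349, and those lower in the knockdown and higher with kava 290, 83 and 311 with DESeq2, no filter and the correction, and 0 to 368. The cause was not tested. Same-number deviations correlated at -0.30, 0.070 and -0.11, and different-number deviations at -0.19 to 0.26. The labels do not say whether same numbers share a day, and correlations over so few libraries cannot settle it. With a replicate block there were 0 higher and 0 lower calls (smallest adjusted p 0.0986, 2919 genes at an unadjusted p under 0.05) and SNRPA1 stood at -1.50 (edgeR adjusted p = 0.118); the block with the GC and length correction gave 1534 higher and 1322 lower. Low genes such as IL6 and MMP9 rest on fewer reads than abundant ones.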
